A study of Mus musculus with 2 samples.

Results

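The CTCF peaks in and around 8 WNT genes of the developing lung were described: the ligand genes Wnt2, Wnt2b, Wnt5a, Wnt7b and Wnt11, and the genes of the intracellular pathway Axin2, Ctnnb1 and Lef1. The genes were chosen by name, for their roles in the pathway, from 21884 protein-coding genes with a unique symbol, and the rule used no signal value. Earlier results of these data were known when the choice was made. Every peak summit inside a gene, or within 50 kb of either end of it, was taken from the optimal peak list (thresholded by the irreproducible discovery rate, IDR). This gave 51 of the 54943 sites of that list on the assembled chromosomes. CTCF, the zinc finger factor found at insulators and loop anchors, was mapped by ChIP-seq in lungs of B6NCrl mouse embryos of both sexes at day 14.5. The lungs came from several dissections and had been pulverised and pooled, so the peaks cannot be assigned to epithelium, mesenchyme or any other cell type. The 2 samples, replicates 1 and 2, form 1 group without a second condition. The labels number them as biological replicates but give both the same biosample and the same donor, and their differences may therefore measure technical variation alone. The lists for replicate 1, replicate 2 and the pooled reads had 300000 peaks each, and sequencing depth cannot be read from them. Since the lists hold no expression values, neither the tissue label nor the activity of a gene could be checked. Coordinates are on mm10, 1-based.

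WNT ligands are secreted proteins that bind Frizzled receptors and their co-receptors. In the canonical pathway this halts the breakdown of beta-catenin, the product of Ctnnb1, which then enters the nucleus and joins factors such as LEF1. AXIN2 is a scaffold of the complex that marks beta-catenin for breakdown, and its gene is a widely used readout of the pathway because beta-catenin induces it. In the early lung, Wnt2 and Wnt2b act from the mesenchyme in lung specification, Wnt7b is made by the epithelium, and Wnt5a and Wnt11 are known mostly for signalling that does not need beta-catenin. CTCF sites have a direction: in the textbook loop, the motifs at its anchors face each other across the loop.

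The binding sequence was read from the sites themselves. The matrix of 20 bases learned from strong sites of odd-numbered autosomes had the consensus TGGCCACCAGGGGGCGCTAG, and a site was said to hold the motif when a match lay within 50 bp of its summit. The strongest motif-bearing site of each gene window is given here, with the motif in capitals and 20 bases on each side. Sequences are reference mm10, 5′ to 3′ on the strand of the motif, so that all 8 can be compared with the consensus. Each was picked for a match, and the Wnt2b, Wnt7b, Axin2 and Lef1 sites were among those the matrix was learned from. Their likeness to the consensus is therefore no independent result. The Wnt11 sequence is that of the second site in rank, because the strongest site of that window held no motif.
Wnt2, chr6:18078786-18078845, reverse strand: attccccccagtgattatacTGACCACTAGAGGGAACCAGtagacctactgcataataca
Wnt2b, chr3:104992899-104992958, forward strand: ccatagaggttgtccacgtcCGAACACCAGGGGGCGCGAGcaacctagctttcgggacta
Wnt5a, chr14:28507683-28507742, reverse strand: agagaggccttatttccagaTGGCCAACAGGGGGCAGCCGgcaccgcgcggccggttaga
Wnt7b, chr15:85610702-85610761, forward strand: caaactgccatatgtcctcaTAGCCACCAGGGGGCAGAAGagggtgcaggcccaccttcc
Wnt11, chr7:98836847-98836906, reverse strand: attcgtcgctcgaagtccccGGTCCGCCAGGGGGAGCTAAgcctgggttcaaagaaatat
Axin2, chr11:108925371-108925430, forward strand: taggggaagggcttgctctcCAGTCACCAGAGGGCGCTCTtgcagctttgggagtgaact
Lef1, chr3:131237916-131237975, reverse strand: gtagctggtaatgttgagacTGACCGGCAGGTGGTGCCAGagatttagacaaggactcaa
Ctnnb1, chr9:120936509-120936568, reverse strand: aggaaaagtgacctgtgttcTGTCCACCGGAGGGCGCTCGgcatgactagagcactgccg

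The gene windows differed widely in how many sites they held. Wnt7b had 14 sites, Axin2 10, Wnt11 9 and Lef1 8, while Wnt2b and Wnt5a had 3 each and Wnt2 and Ctnnb1 had 2 each. The median was 5.5 sites, beside a median of 5.0 over all protein-coding genes, whose middle range ran from 2 to 8. Wnt7b stood out most in this order: 94.9% of protein-coding genes had fewer sites in their window. For Axin2 that figure was 82.1%, for Wnt11 76.5% and for Lef1 70.0%. The Lef1 window spans 213.9 kb and the others 116.7 to 147.0 kb, and the order was the same per length. Per 100 kb, Wnt7b had 9.52 sites, Axin2 7.67, Wnt11 7.49, Lef1 3.74, Wnt2b 2.57, Wnt5a 2.45, Ctnnb1 1.52 and Wnt2 1.41, against a median of 3.62 for protein-coding genes.

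**Figure D1:**
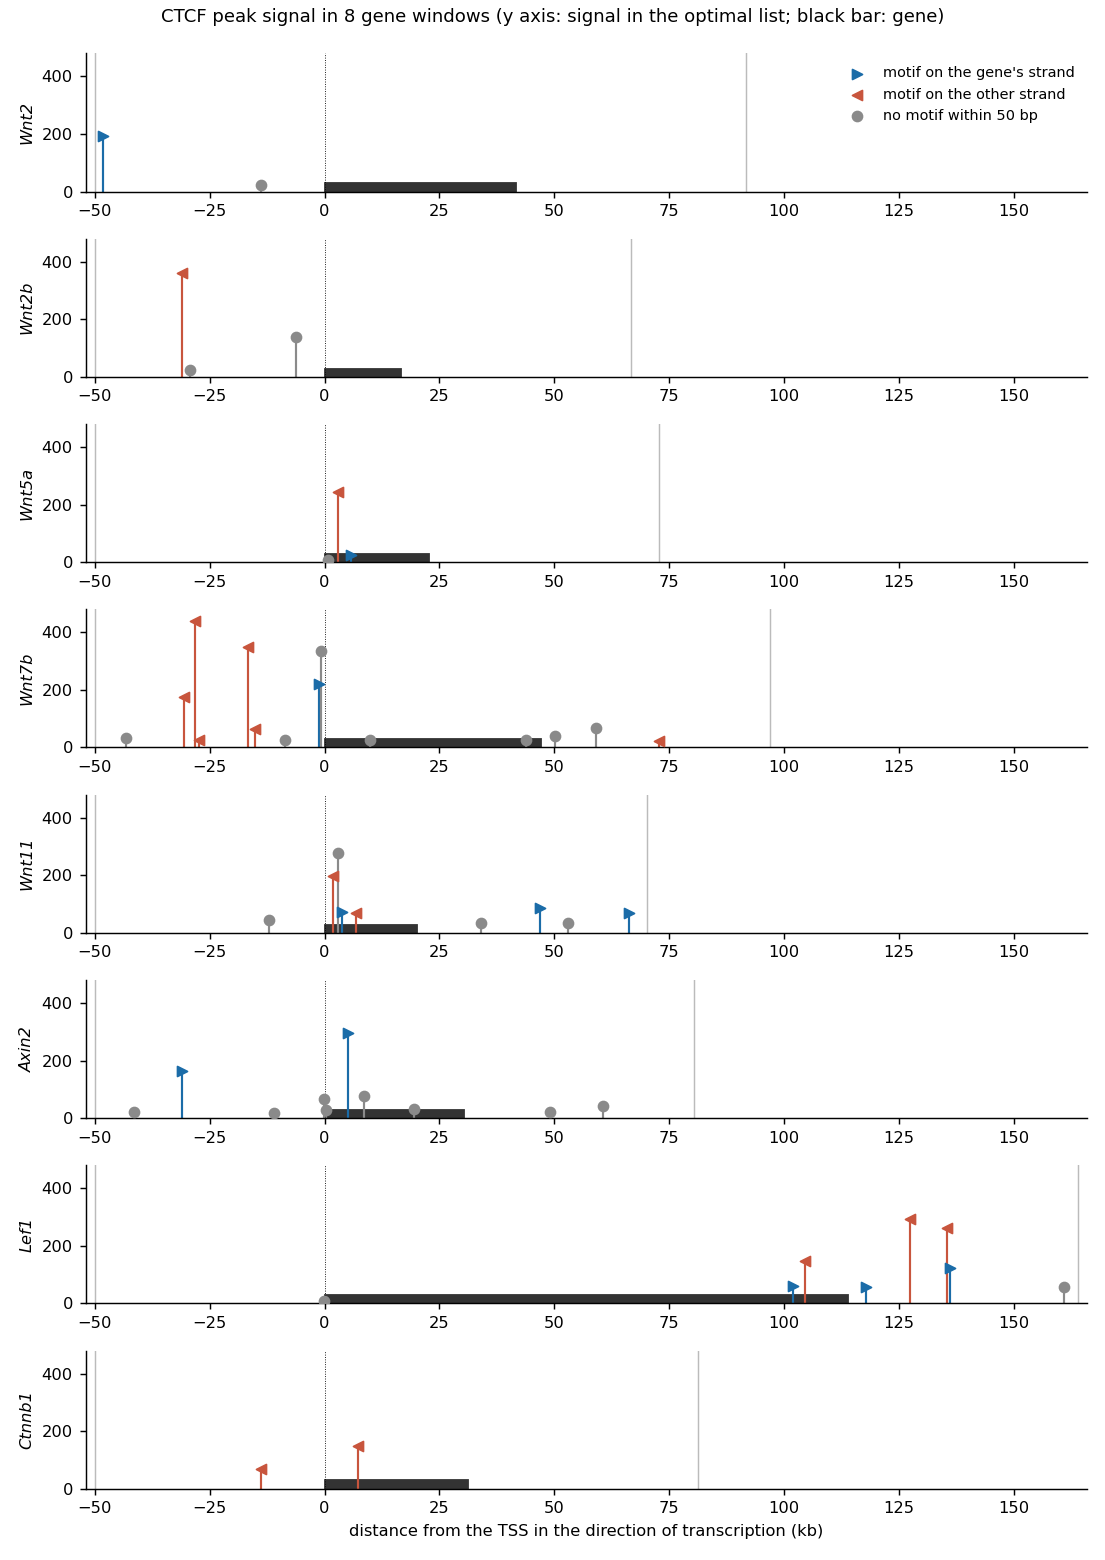
Signal of each optimal site (y axis, the authors' peak signal) against its distance from the TSS in kb, 1 panel per gene, each drawn in its direction of transcription. The black bar is the gene, grey lines mark the ends of the window, and the arrowheads give the direction of the motif relative to the gene. Wnt7b has 9 of its 14 sites upstream, Wnt5a has all 3 inside the gene, and Lef1 has 7 of its 8 beyond 100 kb from the TSS.

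**Figure D2:**
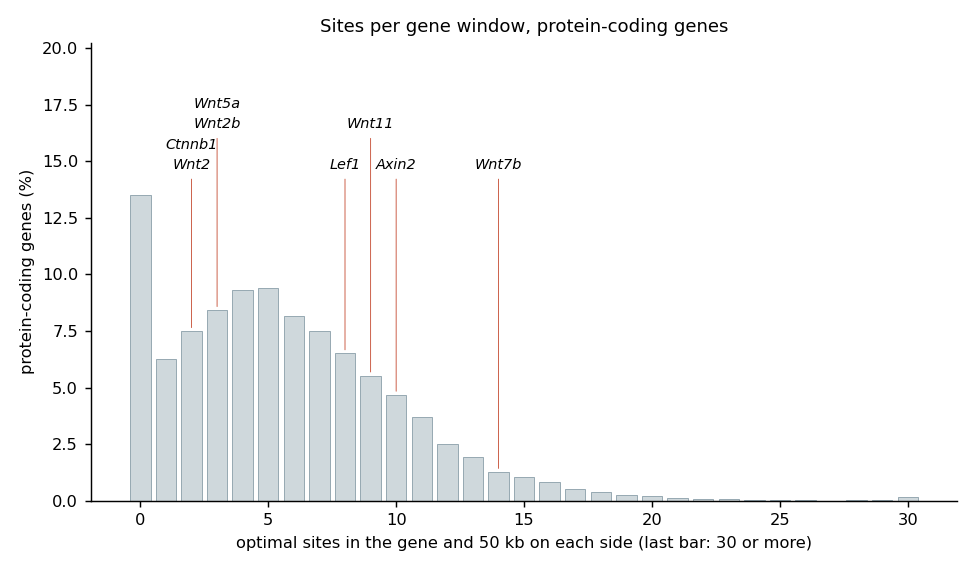
Share of 21884 protein-coding genes (y axis, percent) by the number of optimal sites in the gene and 50 kb on each side (x axis), with the 8 WNT genes marked by lines. Wnt2 and Ctnnb1, at 2 sites, lie left of the median of 5.0, and Wnt7b, at 14, lies in the right tail.

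Signal at these sites covered nearly the whole range of the list. It ran from 7.4 at a promoter site of Wnt5a to 438.1 upstream of Wnt7b, with a median of 66.2, beside 62.3 for all sites. Of the 51 window sites, 11, or 21.6% (95% Wilson interval 12.5 to 34.6), were among the strongest 10000 of the list, against 18.2% of all sites. Of these 11, 4 lay at Wnt7b, 2 each at Wnt11 and Lef1, and 1 each at Wnt2b, Wnt5a and Axin2. Wnt2 and Ctnnb1 had none.

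A site lay within 1 kb of the transcription start site (TSS) in 4 of the 8 genes, or 50% (95% Wilson interval 21.5 to 78.5). Among all protein-coding genes the share was 26.6%, which lies inside that interval. The 4 genes were Wnt7b, Axin2, Wnt5a and Lef1, and their sites were unequal in signal. The Wnt7b promoter site had a signal of 336.4, more than 96.9% of the promoters with a site had, and the stronger of the 2 Axin2 sites had 66.2, close to the median of 55.5. The sites at Lef1 (10.1) and Wnt5a (7.4) were near the bottom of the list, with 0.6% and 0.2% of promoters with a site below them. In the strongest 54953 peaks of either replicate alone, Wnt7b, Axin2 and Wnt5a had a promoter peak and Lef1 did not. With 500 bp in place of 1 kb only Axin2 and Lef1 were counted. With 5 kb, or with every annotated transcript start in place of the gene's 5′ end, the count rose to 5 genes, Wnt11 being added.

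The other 4 genes had no optimal site within 1 kb of the gene's 5′ end, and in the long lists, which reach far down into weak peaks, peaks there were weak or not found. At Wnt11, 2 sites inside the gene, with signals of 278.4 and 70.6, lay 758 and 126 bp from another annotated transcript start of the gene. Wnt11 had a pooled peak with a signal of 12.2 at 463 bp downstream of the TSS, at rank 75661 of 300000. Wnt2 had a pooled peak with 8.4 at 13 bp, at rank 112268, and none in replicate 2. Wnt2b had one with 5.3 at 29 bp upstream, at rank 269165. Ctnnb1 had no peak within 1 kb of its 5′ end in the pooled list or in either replicate list. Of the 8 gene 5′ ends, that of Ctnnb1 had the lowest CpG observed-to-expected ratio, 0.40 over 1001 bp. The others had 0.46 (Wnt7b) to 0.83 (Axin2), and protein-coding genes a median of 0.55. Ctnnb1 has 15 annotated transcripts, and neither the CpG ratio nor the long lists were read at their other starts.

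Wnt2 (chromosome 6, 17988940 to 18030585, reverse strand) lay in sparse surroundings. Its gene body and its downstream flank within 50 kb held no site. The nearer upstream site, 13.9 kb from the TSS, was weak, with a signal of 22.1, at 12.4 in replicate 1 and 9.3 in replicate 2, and without a motif. The stronger one lay 48.2 kb upstream in an intron of the neighbouring gene Asz1. Its signal was 191.4, at 107.4 in replicate 1 and 81.8 in replicate 2, and its motif, shown above, was on the gene's own strand. Downstream the nearest site was 63.5 kb past the gene end, in an intron of St7, with a signal of 135.6 and no motif.

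Wnt2b (chromosome 3, 104945272 to 104961921, reverse strand) had its 3 window sites upstream. The strongest lay 31.0 kb from the TSS with a signal of 361.2, at 204.7 in replicate 1 and 158.4 in replicate 2, and at rank 1037 of 54953 entries. A weak site with 23.0 lay close to it at 29.2 kb. The site nearest to the gene, 6.3 kb upstream, had a signal of 139.7, at 75.9 and 64.4 in the replicates, but no match to the motif: its best score was -7.1 bits, where 9.74 was the threshold. Downstream the nearest site was 59.2 kb away, inside St7l, and weak (22.2).

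Wnt5a (chromosome 14, 28504750 to 28527448, forward strand) lay farthest of the 8 from its nearest flanking sites. Its 3 window sites all lay in the gene, within 5.8 kb of the TSS, and the nearest sites outside it were 182.4 kb upstream and 186.9 kb downstream. Of protein-coding genes, 88.2% had their nearest upstream site closer. The strong site was in intron 1, 2956 bp downstream of the TSS, with a signal of 244.9, at 123.8 in replicate 1 and 121.0 in replicate 2. The other 2 sites were weak and not in both replicates. The promoter site at 708 bp downstream (7.4) was in no replicate 1 peak. The site at 5786 bp (25.6), in an exon of the gene Gm2670, was in no replicate 2 peak. A second pooled peak at the promoter, 490 bp downstream of the TSS and stronger at 22.1, was in the conservative list, whereas the optimal list held the one at 708 bp. The strongest promoter peak of each replicate list had 12.9 at 378 bp in replicate 1 and 12.1 at 493 bp in replicate 2.

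Wnt7b (chromosome 15, 85535437 to 85582473, reverse strand) carried the densest and strongest array of the 8. Upstream, 9 sites lay within 43.3 kb, and 4 of these had signals over 200: 438.1 at 28.3 kb, 350.6 at 16.6 kb, 336.4 at 764 bp and 219.5 at 1233 bp. In replicate 1 these 4 had 246.7, 188.6, 200.3 and 114.6, and in replicate 2 they had 191.8, 160.8, 138.5 and 101.7, so each stood far above the weak sites of the window in both. The site with 438.1 ranked 187 of 54953 entries. Both TSS-proximal sites lay in exonic sequence of AU022754, an antisense gene that runs away from Wnt7b across its start. The gene body and the downstream flank held 5 weaker sites, from 22.0 to 68.8.

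Of the 7 Wnt7b motifs, 6 were on the same strand. Between 15.1 and 30.6 kb upstream, 5 sites held a motif (signals 176.6, 438.1, 27.5, 350.6 and 65.7 from far to near), and all 5 were on the forward strand, against the gene and pointing away from it. The site at 1233 bp upstream held its motif on the reverse strand, pointing into the gene. A single motif lay downstream, 25.7 kb past the gene end, at a weak site of 22.0 on the forward strand and so pointing back at the gene. The promoter site at 764 bp had a strong signal without a match past the threshold. Its best match scored 8.5 bits, and that match (capitals) is printed here because the site was the strongest of the promoter sites.
Wnt7b, 764 bp upstream, chr15:85583216-85583275, reverse strand, below the threshold: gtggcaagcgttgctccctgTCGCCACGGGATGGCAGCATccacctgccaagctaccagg

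Wnt11 (chromosome 7, 98835112 to 98855195, forward strand) had 4 sites close together in the gene, between 1765 and 6826 bp downstream of the TSS. The strongest, at 2975 bp, had 278.4, at 163.9 in replicate 1 and 113.3 in replicate 2. Its best match scored 5.3 bits, so it was, beside the Wnt7b promoter site, 1 of the 2 sites among the 11 strong ones without a motif. Next came the site at 1765 bp with 197.0 (109.8 and 86.0 in the replicates), then those at 3912 bp with 70.6 and at 6826 bp with 70.2. These 3 held motifs, on the reverse, forward and reverse strands. The nearest upstream site was 12.1 kb away and weak (45.8), and the 4 downstream sites, 14.1 to 46.1 kb past the gene end and partly in Uvrag, had signals of 32.7 to 86.0.

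Axin2 (chromosome 11, 108920349 to 108950783, forward strand), the feedback inhibitor, had 10 sites, 2 of them at the promoter. They lay 140 bp upstream and 384 bp downstream of the TSS with signals of 66.2 and 26.8. In replicate 1 they had 37.7 and 20.5, and in replicate 2 27.5 and 5.9, so the downstream one was much lower in replicate 2. Neither held a motif. The strongest site lay in intron 2, 5051 bp downstream of the TSS, with 294.5 (172.9 and 121.3 in the replicates), and a site 31.0 kb upstream had 164.9 (94.5 and 69.3). These were the only sites of the window with a motif, and both motifs were on the gene's strand. The remaining 6 sites ran from 18.6 to 77.5.

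Ctnnb1 (chromosome 9, 120929216 to 120960507, forward strand), the gene of beta-catenin, had 2 sites. One lay in intron 1, 7316 bp downstream of the TSS, with 148.8 (79.6 in replicate 1 and 67.8 in replicate 2). The other lay 13.9 kb upstream, 94 bp from the start of the non-coding gene 1700020M21Rik, with 69.6 (30.9 and 35.9). Both held a motif on the strand opposite to the gene. The nearest downstream site was 50.7 kb past the gene end, in an intron of Ulk4, with 39.6.

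Lef1 (chromosome 3, 131110471 to 131224356, forward strand), the gene of a nuclear partner of beta-catenin, was the longest of the 8 at 113.9 kb. Apart from the weak promoter site 19 bp upstream of the TSS (10.1; 8.6 in replicate 1 and 4.7 in replicate 2, with summits 114 and 97 bp away), the start and nearly all of the gene were free of sites. The other 7 sites were gathered between 101.9 and 161.0 kb from the TSS, 2 in intron 11 and 5 past the gene end, of which 4 lay in the neighbouring gene Hadh. The strongest had 294.1 (159.4 and 135.8) at 13.6 kb past the end, and the next had 260.8 (133.4 and 127.9) at 21.6 kb. A motif was held by 6 of these 7, 3 on each strand.

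The strongest site of the window lay inside the gene in Wnt5a, Wnt11, Axin2 and Ctnnb1, each time 2956 to 7316 bp downstream of the TSS. That is 4 of 8 genes, or 50% (95% Wilson interval 21.5 to 78.5), against 19.3% of protein-coding genes with a site in their window. Counting any site from 1 kb to 10 kb downstream of the TSS gave 5 of 8, the 4 named and Wnt7b, whose site there had a signal of 26.7, or 62.5% (95% Wilson interval 30.6 to 86.3), against 26.7% of protein-coding genes. This layout was picked out after the positions were seen, so it was not tested. The count was also 5 in the conservative list and in each replicate alone, and 3 among the strongest 10000 sites, to which the Ctnnb1 and Wnt7b sites do not belong. These distances are from the gene's 5′ end. From the nearest annotated transcript start, the strongest sites of Wnt5a, Wnt11, Axin2 and Ctnnb1 lay 1806, 758, 2219 and 2714 bp away. The downstream counts were not repeated from those starts.

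The motif was more frequent at the strong sites than at the weak ones. Of the 51 window sites, 26 held it, or 51% (95% Wilson interval 37.7 to 64.1), beside 58.5% of all sites. Among the 11 strong sites 9 held it, or 81.8% (95% Wilson interval 52.3 to 94.9), beside 83% of all sites in that class. Among the 24 sites in the weaker part of the list (ranks below the middle) 5 did, or 20.8% (9.24 to 40.5). Of all sites in that part 43.7% held it, a share above that interval. This difference was not tested. None of the 5 promoter sites of the 8 genes held it (95% Wilson interval 0 to 43.4%), where 25.9% of sites within 1 kb of a protein-coding TSS did, a share inside that interval. Their best scores were 8.5 bits at Wnt7b, 4.3 and -11.7 at Axin2, -12.1 at Wnt5a and -13.9 at Lef1. The Wnt7b site and the stronger Axin2 site would thus pass the looser threshold of 1.42 bits, at which the 25.9% was not recounted. Beside other annotated starts, the motif-bearing sites with 25.6 at Wnt5a and 70.6 at Wnt11 lay 82 and 126 bp from a transcript start of their gene. Of the 51 sites, 8 were among those the matrix was learned from. Outside the odd-numbered autosomes 3 of 5 window sites held the motif, or 60% (95% Wilson interval 23.1 to 88.2), beside 58.4% of all sites there. In the motif-bearing sites 11 motifs were on the strand of the gene and 15 on the other, and 24 of 26 motifs were centred within 12 bp of the summit. Neither count was taken over all motif-bearing sites, so neither sets these genes apart. The sequence around sites without a motif was richer in G and C, with a median of 56.7% over 201 bp against 50.2%.

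**Figure D3:**
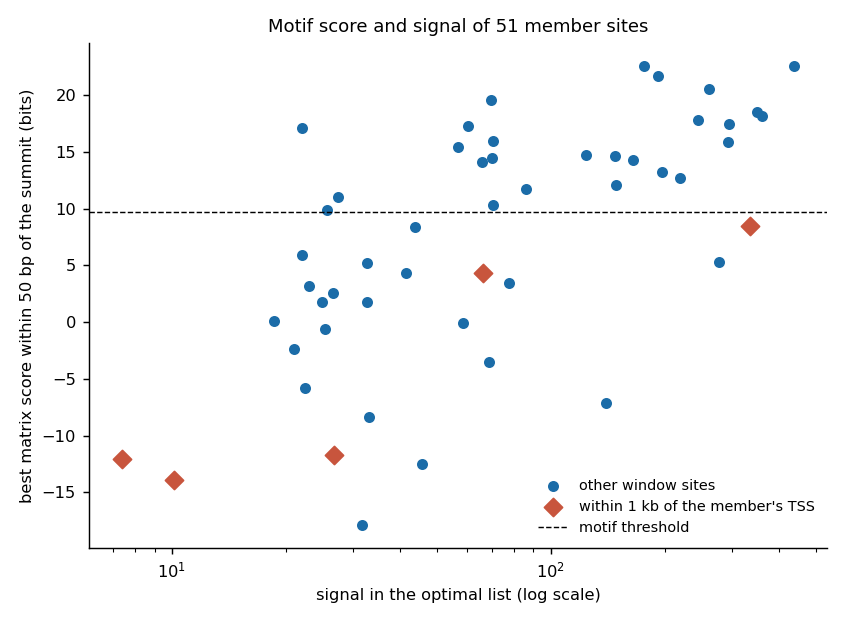
Best matrix score within 50 bp of the summit (y axis, bits) against signal in the optimal list (x axis, log scale) for the 51 window sites. Diamonds are the 5 sites within 1 kb of the gene's TSS, all under the dashed threshold of 9.74 bits, and the Wnt7b promoter site, at 336.4, comes nearest to it with 8.5.

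Some of the motifs were near copies of each other. Of the 26, 6, at 4 Wnt7b sites and at 1 site each of Wnt11 and Lef1, shared the 9 bases CAGAAGAGG, read on the strand of the motif inside the 20-base match. All 6 lay in soft-masked sequence, the lower-case letters that mark repeats in the reference. Rodent B2 repeats are known to carry CTCF motifs, but the masking does not name a repeat family and none was assigned. The string was chosen after these sequences had been seen. Among all motif-bearing sites 19.1% had it, against 23.1% here (95% Wilson interval 11 to 42.1), and 89.2% of those were soft-masked. The 6 sites had signals of 22.0 to 176.6, with a median of 63.2. The median was 40.7 for all sites with the string and 95.1 for all motif-bearing sites. Over all 51 sites the soft-masked share was 15.7%, against 19.6% of all sites. At the strongest Wnt7b site, printed above, the same letters run past the end of the match, and it was not counted. Of the 6, 4 are shown, to let the shared letters be seen.
Wnt7b, 30.6 kb upstream, chr15:85613081-85613140, forward strand: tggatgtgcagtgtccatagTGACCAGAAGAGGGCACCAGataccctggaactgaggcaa
Wnt7b, 15.1 kb upstream, chr15:85597576-85597635, forward strand: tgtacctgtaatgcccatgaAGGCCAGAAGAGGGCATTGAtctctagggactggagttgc
Wnt11, 66.2 kb downstream of the TSS, chr7:98901271-98901330, forward strand: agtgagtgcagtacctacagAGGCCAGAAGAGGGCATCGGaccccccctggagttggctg
Lef1, 101.9 kb downstream of the TSS, chr3:131212369-131212428, forward strand: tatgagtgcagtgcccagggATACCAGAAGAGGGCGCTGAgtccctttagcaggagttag

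At the threshold of 9.74 bits, the nearest sites on each side of a gene held few motifs and formed no facing pair. The nearest flanking sites had convergent motifs in 0 of 8 genes (95% Wilson interval 0 to 32.4%), against 10.6% of protein-coding genes. Of the 16 flanking sites 2 held a motif, the upstream site of Ctnnb1 and the downstream site of Lef1, where 58.5% of all sites did. The share among the nearest flanking sites of all protein-coding genes was not counted. Below the threshold, the best matches at these sites faced each other at Wnt2 (7.0 bits downstream, 5.9 upstream) and Wnt7b (4.3 and 8.5). These scores pass the looser threshold of 1.42 bits, which 5% of shifted windows pass. The count of convergent nearest flanks was not repeated there, so the 0 holds for the stricter threshold only. When sites without a motif were passed over, the nearest motif-bearing sites were convergent around Wnt5a, Wnt7b and Axin2, or 37.5% of the 8 (95% Wilson interval 13.7 to 69.4), against 27.7% of protein-coding genes. They were divergent around Wnt11 and Ctnnb1 and in tandem around Wnt2, Wnt2b and Lef1, and these 2 orders were not counted over all protein-coding genes.

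The 3 facing pairs differed in size. Around Wnt7b the pair spanned 74.0 kb, from the 219.5 site at the start to the weak 22.0 site behind the gene. Around Axin2 it spanned 141.3 kb, from the 164.9 site 31.0 kb upstream to a site 79.9 kb past the gene end with 175.1, at 100.7 in replicate 1 and 73.8 in replicate 2. Around Wnt5a it spanned 717.8 kb, between sites with signals of 33.3 and 50, and this pair was not convergent in the conservative list, among the strongest pooled peaks or in replicate 2 alone. The Axin2 pair is printed as the facing pair with the strongest weaker site, and its downstream motif also held CAGAAGAGG.
Axin2, 31.0 kb upstream, chr11:108889320-108889379, forward strand: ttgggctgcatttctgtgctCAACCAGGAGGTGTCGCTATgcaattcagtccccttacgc
Axin2, 79.9 kb past the gene end, chr11:109030614-109030673, reverse strand: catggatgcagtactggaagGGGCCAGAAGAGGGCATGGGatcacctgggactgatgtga

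**Figure D4:**
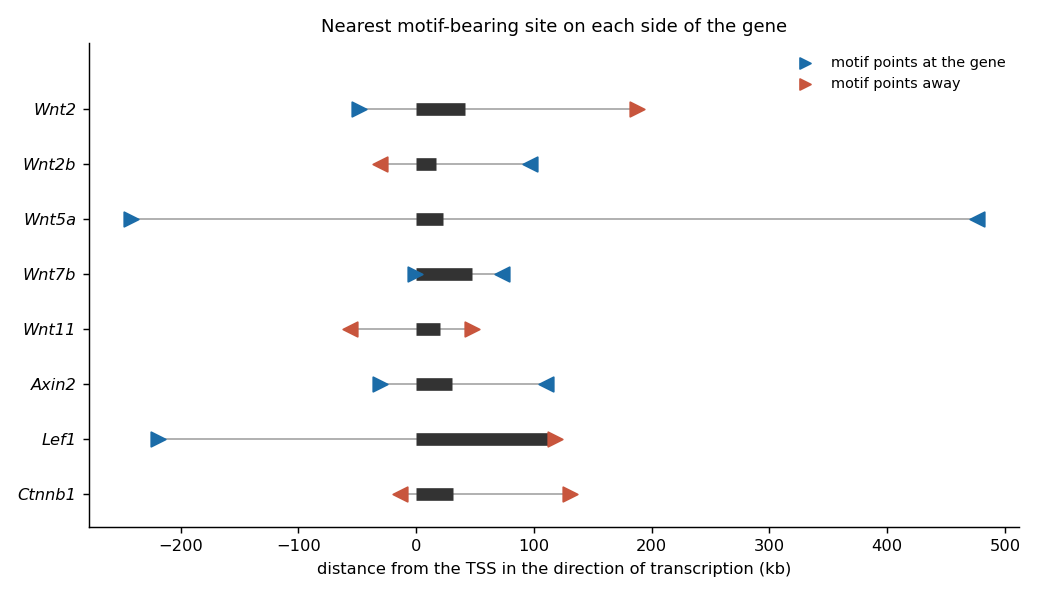
Nearest motif-bearing site on each side of the 8 genes, by distance from the TSS in the direction of transcription (x axis, kb); black bars are the genes and arrowheads give the motif's direction. In Wnt5a, Wnt7b and Axin2 both arrowheads point at the gene, over 717.8, 74.0 and 141.3 kb, and in Wnt11 and Ctnnb1 both point away.

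The replicates ranked these sites alike, as they did the sites of the whole list. Of the 51, 49 had their summit in a peak of both replicate lists, or 96.1% (95% Wilson interval 86.8 to 98.9), against 97.8% of all sites, and 44, or 86.3% (74.3 to 93.2), were also entries of the conservative list, against 87.5%. Signal was higher in replicate 1 at 41 of the 49, with a median ratio of 1.28, beside 1.23 for all sites; the values are not scaled between lists. Across the 49 sites Spearman's rho was 0.945, beside 0.942 over all sites matched in both lists, a description across sites that share 2 libraries. The IDR threshold selects peaks that rank reproducibly, and the replicate lists reach far down into weak peaks. Much of this agreement was therefore built into the choice of list. The widest gap was at the Axin2 site 18.7 kb past the gene end, with 18.9 in replicate 1 and 4.2 in replicate 2. It was 1 of 4 sites with a ratio over 2, the others being the Axin2 site at 384 bp, the Wnt7b site at 15.1 kb and the Wnt11 site at 6826 bp.

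**Figure D5:**
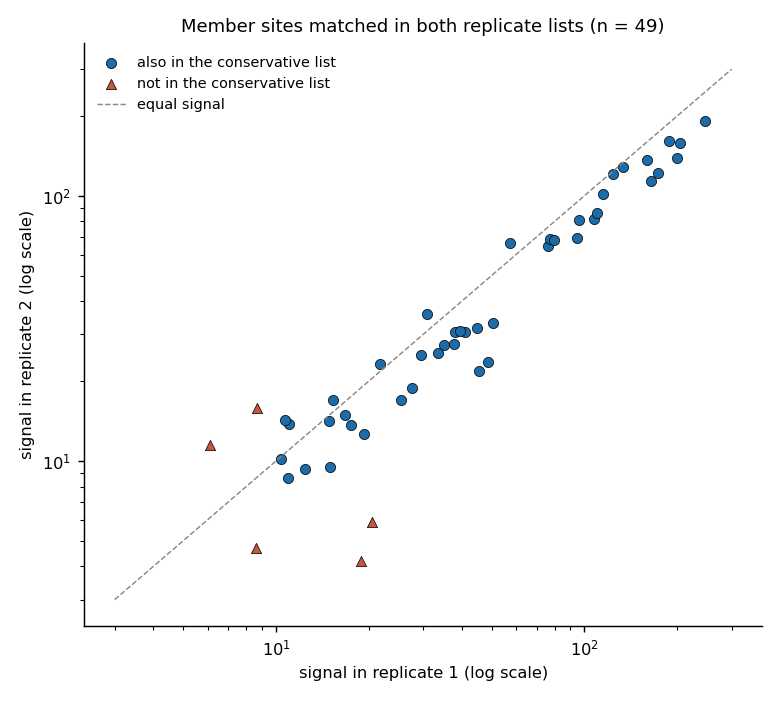
Signal in replicate 1 (x axis) and replicate 2 (y axis), both on log scales, for the 49 window sites matched in both lists; the dashed line marks equal signal and triangles are sites not in the conservative list. Most points lie just under the line, and the 5 triangles lie among the weakest sites.

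Promoter sites were also counted over the wider pathway. In a list of 76 WNT pathway genes, 35 had a site within 1 kb of the TSS, or 46.1% (95% Wilson interval 35.3 to 57.2), beside the 26.6% of all protein-coding genes, and among the 68 that are not among the 8 the share was 45.6%. By role, the count was 6 of 19 ligands, 0 of 2 secretion genes, 6 of 15 receptors and co-receptors, 5 of 9 R-spondins and their partners, 7 of 13 secreted inhibitors, 6 of 10 cytoplasmic genes and 5 of 8 nuclear genes. The strongest promoter site of the list was at Tcf7l1, a nuclear partner of beta-catenin, with 390.0. Wnt7b followed with 336.4 and then Lgr6, a receptor for R-spondins, with 270.2. The list was drawn up with earlier results of these data known and was not tested.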

How the data were processed

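Peak lists in narrowPeak format on mm10 were used: the peaks of replicate 1, those of replicate 2, those of the pooled reads, and the optimal and conservative IDR lists derived from these. The peak signal is the authors' value for each peak, as deposited, and was not rescaled between lists here. Per the deposited README, each replicate's peaks also derive from a further file that both replicates share, whose kind is not stated. The sources used here do not give the aligner, the peak caller or the IDR threshold. Depth is unknown.

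Summits on chromosomes 1 to 19, X and Y were used, which leaves out 10 of 54953 optimal entries. The genome was GRCm38 patch 6, with GENCODE M21 genes (gene 5′ end as TSS). Replicate values are those of the peak that holds the summit, with the nearest own summit. The matrix was grown from a 9-base seed on 3000 strong sites, in 15 rounds that each dropped the lowest 30%, with a threshold that 1% of windows shifted by 1 kb pass. The scan was checked on motifs planted in shifted genomic windows, and the site and promoter counts by recounting a sample of the protein-coding genes. No test was run: there is 1 group, and intervals cover counting error only.

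The members and lists were chosen with earlier results of these data known. All 8 members were named, with promoter, flanking and strongest sites, and the 3 strongest pathway promoters. Alternatives were other lists, windows, starts and motif settings. Tools were samtools 1.23.1 and Python 3.11.15 with pysam 0.24.0, scipy 1.17.1, pandas 2.3.3, numpy 2.4.6 and matplotlib 3.10.9.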

Additional observations from a re-analysis of the deposited data

How the results depend on the processing

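Among the strongest 10000 sites, 1 gene had a promoter site, 11 sites lay in the windows, 81.8% of them held the motif, 3 genes had convergent nearest flanks and 3 had a site 1 kb to 10 kb downstream of the TSS. A 500 bp promoter left 2 genes, and a flank of 100 kb gave 80 sites. The motif share was 37.3% with a window of 100 bp, 74.5% with a threshold that 5% of shifted windows pass and 29.4% with a short CTCF core. Passing over sites without a motif gave 3 genes with convergent flanks in place of 0, and 4 with the 5% threshold. Leaving out each replicate gave 3 genes with a promoter site both times, 52 to 58 sites, a motif share of 48.3% to 50%, 0 convergent nearest flanks, 2 to 3 genes with convergent motif-bearing flanks and 5 with a downstream site. These last 2 counts were tried under other settings only after the data were seen. The percentile of each gene's strongest site moved by less than the spread between replicates (6.93 points) in all 16 replicate values. That spread was taken over all 53741 sites matched in both lists. Most of the strongest sites lie near the top, where percentiles can move little, and the pooled value holds both replicates. The comparison therefore says little about stability. The cause of the shifts under other settings was not tested. No paired analysis was possible because there is 1 group. Depth is unknown, so a missing peak does not show a missing site.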

Other observations

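Some window sites lay near the starts of other genes. The upstream Ctnnb1 site was 94 bp from the TSS of 1700020M21Rik. The last site of the Lef1 window, with a signal of 58.5, was 665 bp from the TSS of Hadh. The Wnt5a site with 25.6 was 856 bp from the TSS of the gene Gm2670 and 82 bp from an annotated Wnt5a transcript start. The strongest Wnt2b site, with 361.2, was 1103 bp from the TSS of the antisense gene Gm40117. Other genes also overlapped the promoter sites of Wnt7b (the antisense gene AU022754) and Lef1 (Gm43352).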
